A study of Mus musculus with 8 samples.

Results

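Cultures of mouse pre-B cells that carried the leukaemia fusion TCF3-ZNF384 were compared with cultures that carried the empty lentiviral vector. The 4 libraries of this comparison, 2 per group, were taken by their labels from the 8 libraries of the series. All 32499 genes of the count table entered, of which 12970 had enough counts to be tested. Each of the 4 groups of the series was C57BL/6 bone marrow cells grown as pre-B cells without Arf (Arf-/-), transduced with lentivirus and sorted for GFP. The empty vector controls therefore lacked Arf as well. The control group received the empty vector and the others an HA-tagged insert: ZNF384 in full length, its fusion TAF15-ZNF384 or its fusion TCF3-ZNF384, the last being the group described here. The labels state 2 biological replicates per group and do not say whether a culture was a clone or a pool, which promoter drove the insert, or how long the cells were grown before sorting. Whether replicates came from separate mice is not stated, so the p-values measure the spread between these cultures.

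ZNF384 is a C2H2 zinc finger transcription factor known to bind runs of adenines in DNA. In acute lymphoblastic leukaemia of B precursors its gene is fused to several partners, among them TCF3 and TAF15, and these leukaemias often carry myeloid antigens and high FLT3. TCF3 encodes the E proteins E12 and E47, which bind E-box sequences and drive B lineage genes, including the genes of antibody gene rearrangement. TAF15 belongs to the FET family of RNA-binding proteins. A pre-B cell assembles a heavy chain with the surrogate light chain into the pre-B cell receptor, signals through it and through the interleukin 7 receptor, divides, and then turns on the RAG recombinase to rearrange its light chain genes.

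Libraries were RNA-seq of total RNA with a strand-marking kit, deposited as raw counts per gene on mm9. Total counts ran from 28469291 to 29072409 in the empty vector libraries and were 9583008 and 17876711 in TCF3-ZNF384 replicates 1 and 2. Levels are given in CPM, counts scaled to a common library size with trimmed means, replicate 1 before replicate 2, and changes as log2 fold changes with their standard errors (SE). "Rose" and "fell" are used of genes with a Benjamini-Hochberg adjusted p under 0.05 in edgeR's quasi-likelihood test. The 5 abundant structural non-coding genes took 27.2% and 33.2% of the empty vector counts and 18.5% and 24.5% of the TCF3-ZNF384 counts. The column names of both empty vector libraries lack a suffix that the other 6 carry, so a separate preparation of the controls cannot be told apart from the group, and values with full-length ZNF384 are therefore given for many of the genes below, including each gene whose level is printed as changed but whose difference from full-length ZNF384 missed the threshold or had the opposite sign. The common biological coefficient of variation between replicates was 0.0958.

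The introduced gene was checked first. Zfp384, the mouse gene of ZNF384 (chr6:124959163-124987883), stood at 24 and 21.6 CPM with the empty vector, 51.1 and 90.2 under full-length ZNF384, 185 and 162 under the TAF15 fusion and 511 and 450.2 under the TCF3 fusion. The 4 groups did not overlap, and the TCF3-ZNF384 libraries were the highest of all 8. The difference from the empty vector was 4.40 ± 0.27 on the log2 scale (SE, adjusted p = 1.34e-05), and it was 2.77 ± 0.25 from full-length ZNF384 and 1.47 ± 0.24 from TAF15-ZNF384 (adjusted p = 0.00772). The labels name the inserts by human symbols, and which of these reads came from the insert was not tested. Tcf3 itself stood at 70.3 and 73.3 CPM with the empty vector and 98.9 and 105 with TCF3-ZNF384, a rise of 0.51 ± 0.11, and at 96.1 and 93.9 with TAF15-ZNF384. Reads of the TCF3 insert were not separated from those of the mouse gene either. Taf15 did not pass the test (27.4 and 26.1 against 21.8 and 23.4 CPM, adjusted p = 0.137). Cdkn2a, the locus of Arf and p16, had reads in every library and rose from 59.7 and 60.4 to 94.6 and 100.04 CPM. The table does not separate the transcripts of that locus, so it does not check the Arf deletion.

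The pre-B label held in both groups. Pax5, the factor that maintains B cell identity, stood at 1073 and 1026 CPM with the empty vector and 978 and 1024 with TCF3-ZNF384, and the receptor partners Cd79a (697 and 604 against 746 and 729 CPM) and Cd79b (557 and 532 against 534 and 512 CPM) did not pass the test either (adjusted p = 0.611, 0.169 and 0.676). The defining pre-B genes Ebf1, Vpreb1, Igll1, Blnk and Il7r were all detected in all 4 libraries. Most markers of other cell types were under 1 CPM. Of 33 myeloid markers, 7 had no count and 27 were under 1 CPM in all 4 libraries, and their summed level was 28.2 to 32.5 CPM with the empty vector and 25.8 to 32.0 CPM with TCF3-ZNF384. Of 30 T and NK cell markers 21 were under 1 CPM throughout and the sum was 701 to 710 CPM with the empty vector and 552 to 589 CPM with TCF3-ZNF384, with Cd3g, Cd8a and Gata3 at 0. Of 22 erythroid and megakaryocyte markers 16 were under 1 CPM and the sum was 269 to 295 CPM against 373 to 379.9 CPM, with Alas2 and Pf4 at 0. The integrin gene Itgb3, described below, is in this list, and its rise alone exceeded the difference between these sums. Of 20 stromal and endothelial markers 16 were under 1 CPM and the sum was 261 to 268 CPM against 274 to 292 CPM, with Dcn and Tie1 at 0. In bulk RNA, fewer cells of a type and less RNA per cell cannot be told apart.

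TCF3-ZNF384 changed 4317 of the 12970 tested genes, 33.3%, with 2106 higher (16.2%) and 2211 lower (17%). Changes of at least 2-fold were more often rises: 692 genes rose (5.34%) and 445 fell (3.43%) by that much. The median over all tested genes was 0.01. The libraries of the groups did not overlap for 9211 genes (71%). Leaving out one library took the number of changed genes to 2855 without empty vector replicate 1, 2827 without empty vector replicate 2, 2630 without TCF3-ZNF384 replicate 1 and 2501 without TCF3-ZNF384 replicate 2. With scaling by total counts less the 5 non-coding genes, the median moved to 0.15 and 67.6% of the changed genes were higher, against 48.8% with trimmed means, so small shifts in one direction depend on the scale. In the same fit, which shares the TCF3-ZNF384 libraries, 5916 genes (45.6%) differed from full-length ZNF384, with 22.2% higher and 23.4% lower, and 1308 genes (10.1%) from TAF15-ZNF384, with 5.91% higher and 4.17% lower. Counts of rises and falls in the gene lists below are to be read against 16.2% and 17%. Counts of list members in the other contrasts are to be read against the shares of those contrasts.

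**Figure D1:**
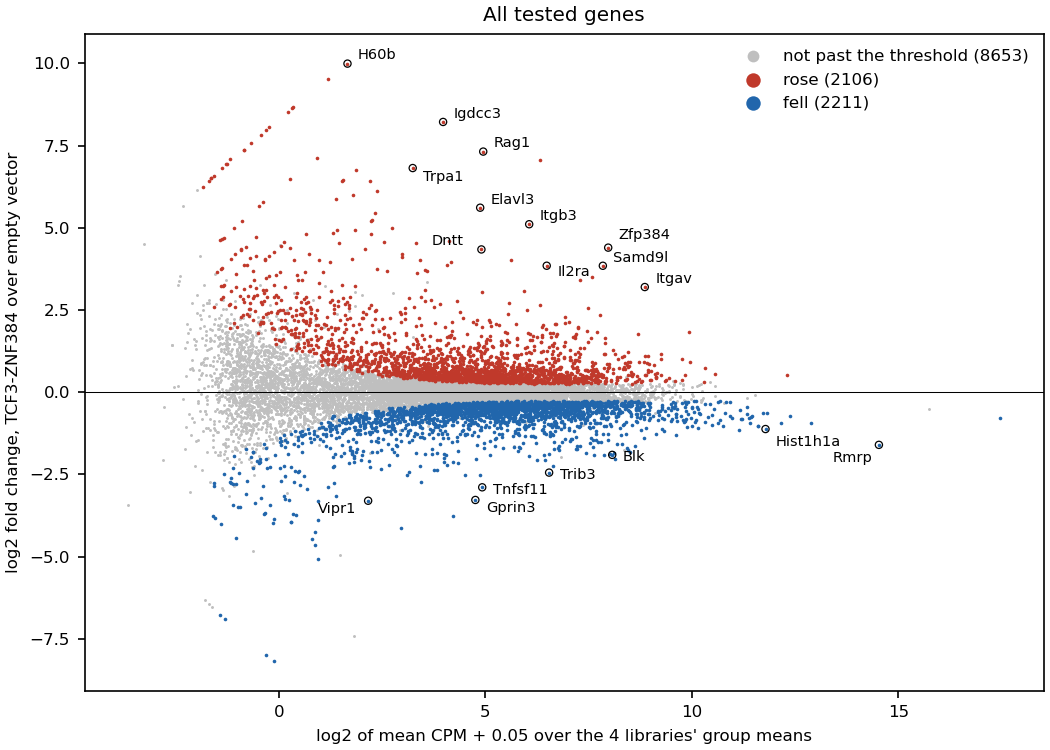
Log2 fold change of TCF3-ZNF384 over the empty vector (vertical axis) against the log2 of the mean level in CPM (horizontal axis), 1 point per tested gene; red points rose (2106), blue points fell (2211), grey points did not pass the threshold, and circled genes are named in the text. The rises reach far beyond the falls at levels from about 0 to 8 on the horizontal axis, where Rag1, Itgb3, Zfp384 and Samd9l lie above 3 on the log2 scale. Itgav also lies above 3, to the right of that range.

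The genes that rose most came from near silence. The 14 largest rises among genes with at least 5 CPM were H60b, Igdcc3, Rag1, Trpa1, Slit3, Prg3, Agbl1, Acyp2, Tfr2, Foxp3, Tns1, Elavl3, Cubn and Ankrd33b, and no library of either group overlapped for any of them, as the rule required. H60b, a ligand of the NK receptor NKG2D (chr10:21878392-22008655), had no read in either control library and 7.73 and 4.74 CPM with TCF3-ZNF384, at least 98.1-fold higher with the floor of 3 counts over the empty vector group. With TAF15-ZNF384 it also had 0 counts, and with full-length ZNF384 it stood at 0 and 0.0874 CPM. Igdcc3, an immunoglobulin superfamily receptor (chr9:64988961-65033664), went from 0.156 and 0.0403 to 29.9 and 32.7 CPM, a log2 fold change of 8.22 ± 0.30 (adjusted p = 3.83e-10). It was at 0.115 and 0.262 CPM with full-length ZNF384 and at 8.48 and 8.25 with TAF15-ZNF384, which was lower than with TCF3-ZNF384 by 1.91 ± 0.18 on the log2 scale (adjusted p = 1.17e-05). Trpa1, an irritant-sensing ion channel (chr1:14862729-14908943), stood at 0.235 and 0.0806 CPM with the empty vector, 0.0459 and 0.0874 under full-length ZNF384, 0.979 and 0.952 under the TAF15 fusion and 20.7 and 16.6 under the TCF3 fusion. Its log2 fold change over the empty vector was 6.82 ± 0.34, and over TAF15-ZNF384 it was 4.26 ± 0.30 (adjusted p = 1.16e-06). Only the TCF3-ZNF384 libraries exceeded 1 CPM for this gene.

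Elavl3, an RNA-binding protein known from neurons (chr9:21819449-21856467), rose from 1.56 and 0.766 to 56.1 and 58.8 CPM (log2 5.61 ± 0.22, adjusted p = 5.54e-10), with 0.711 and 0.655 CPM under full-length ZNF384 and 3.91 and 2.54 under TAF15-ZNF384. Foxp3, the lineage factor of regulatory T cells, rose from 0.0391 and 0.161 to 5.43 and 7.97 CPM (log2 6.00 ± 0.52), and Tfr2, a transferrin receptor, from 0.117 and 0.161 to 12.1 and 8.4 CPM (log2 6.13 ± 0.41). Tfr2 was at 0.109 and 0.106 CPM with TAF15-ZNF384, about its level in the controls, whereas Agbl1, a carboxypeptidase, was at 4.35 and 3.6 under the TAF15 fusion and 8.28 and 9.8 under the TCF3 fusion against 0.0782 and 0.121 with the empty vector. Cubn, the endocytic receptor cubilin, rose from 0.196 and 0.242 to 9.2 and 10.2 CPM, and the actin linker Tns1 from 0.0391 and 0.121 to 5.34 and 4.79 CPM. For Slit3, Prg3 and Acyp2 the empty vector group held 3 counts each, so the ratios are wide: 121 (95% interval 41 to 594), 93.0 (31.3 to 456) and 92.4 (31.1 to 453), from exact binomial intervals that cover counting error only. Ankrd33b rose from 0.391 and 0.0806 to 8.93 and 9.37 CPM and was at 4.35 and 5.29 with TAF15-ZNF384, a difference between the fusions that did not pass the test (adjusted p = 0.0703).

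The 14 largest falls were taken among genes with at least 5 CPM in the higher group, here the empty vector. That rule set their starting levels, and genes at lower levels could fall further. Fggy, named later, had a log2 change of -4.44 from a mean of 0.856 CPM. Gprin3 (chr6:59302455-59376284), a G protein-binding factor, dropped from 53.3 and 44.8 CPM with the empty vector to 4.97 and 5.12 with TCF3-ZNF384, a log2 change of -3.28 ± 0.13 (adjusted p = 9.12e-10). It stood at 80.02 and 80.8 CPM under full-length ZNF384 and 9.13 and 8.78 under TAF15-ZNF384. The 4 libraries without a fusion were all above 44 CPM and the 4 with one below 10 CPM. Tnfsf11, which encodes the osteoclast factor RANKL (chr14:78677252-78707850), dropped from 54.6 and 52.7 to 5.98 and 8.13 CPM (log2 -2.89 ± 0.20), with 80.4 and 54.4 under full-length ZNF384 and 14.1 and 16.6 under TAF15-ZNF384. Vipr1, the receptor of vasoactive intestinal peptide, dropped from 6.8 and 9.31 to 0.736 and 0.861 CPM (log2 -3.30 ± 0.31). Further falls were those of the cystatin Cst7 (18.8 and 19.1 to 2.39 and 3.18 CPM), the SLAM family receptor Slamf9 (48.7 and 52 to 7.18 and 9.85), the arginine deiminase Padi2 (21.7 and 23.4 to 4.88 and 4.04), the semaphorin Sema7a (23.1 and 25 to 3.77 and 5.33) and the cytokine Lif (7.82 and 7.46 to 1.56 and 1.56). Padi2 was at 48.3 and 53.4 CPM with full-length ZNF384, above the empty vector libraries. Chac1 and Trib3 belong to the integrated stress response described later, and Arhgef33, Kctd11, the small RNA Scarna3a and the pseudogene Rpl22-ps1 complete the 14. The call for Rpl22-ps1 was lost without any 1 of the 4 libraries (adjusted p from 0.0607 to 0.174), and reads of pseudogenes of ribosomal proteins may belong to their parent genes.

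**Figure D2:**
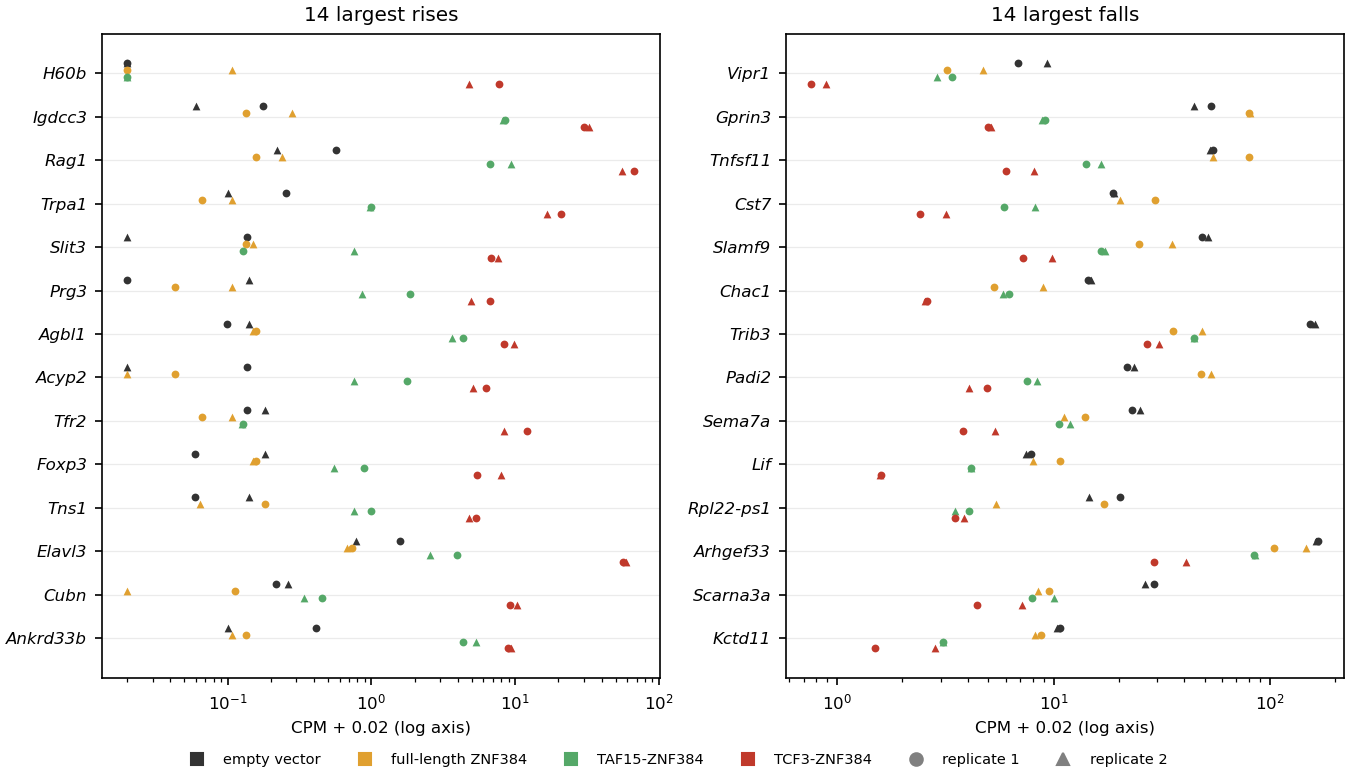
Level in CPM plus 0.02 (horizontal log axis) of the 14 largest rises (left) and the 14 largest falls (right), 1 point per library, coloured by group and shaped by replicate. The red TCF3-ZNF384 points lie apart from the black empty vector points in every line; for Igdcc3, Rag1, Agbl1 and Ankrd33b the green TAF15-ZNF384 points lie between them, and for H60b and Tfr2 they lie with the controls.

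By the amount of RNA gained, the leading genes were March6, Itgav, Mtor, Ccnd2, Tspan13, Itpkb, Zfp384 and Ywhag. March6, a ubiquitin ligase of the endoplasmic reticulum, went from 448 and 413 to 1575 and 1497 CPM (log2 1.83 ± 0.09) and the integrin subunit Itgav from 93.3 and 89.5 to 843 and 836 CPM (log2 3.20 ± 0.10). Mtor, the growth kinase, rose from 1001 and 936 to 1563 and 1632 CPM, a smaller change of 0.72 ± 0.10, and was at 1611 and 1516 CPM with TAF15-ZNF384 (adjusted p = 0.895 between the fusions). Itpkb, a kinase of inositol trisphosphate, rose from 401 and 355 to 806 and 871 CPM, and the 14-3-3 protein Ywhag from 209 and 166 to 617 and 673 CPM. The losses by amount were structural RNAs and linker or core histones. Rmrp, the RNA of the RNase MRP complex, fell from 37033 and 34157 to 8637 and 14838 CPM, where the TCF3-ZNF384 libraries differed from each other by more than the empty vector libraries did. It stood at 12116 and 13989 CPM under full-length ZNF384 (difference -0.15 ± 0.21, adjusted p = 0.58) and 19965 and 20580.1 under TAF15-ZNF384, so the empty vector libraries stood above the 6 others. Gm42418 fell by 0.95 on the log2 scale, and the histone genes Hist1h1d, Hist1h1a, Hist1h2bb and Hist1h3e by 0.94, 1.12, 1.02 and 1.01. Gm26917 went from 188367 and 270594 to 109949 and 155613 CPM but stood at 48246 and 49680 under full-length ZNF384. With TCF3-ZNF384 it was above that group by 1.44 ± 0.185 (adjusted p = 5.40e-05) and below the empty vector. The falls of Gm26917 and AY036118 were lost without some libraries: for Gm26917 adjusted p was 0.0812 without empty vector replicate 2 and 0.0536 without TCF3-ZNF384 replicate 1, and for AY036118, also lost with the replicate number as a block (0.0718), it was 0.162, 0.195 and 0.164 without empty vector replicate 1, TCF3-ZNF384 replicate 1 and TCF3-ZNF384 replicate 2.

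Promoter sequences were read for the genes that changed, because ZNF384 is known for binding adenine runs and E proteins for binding E-boxes. A promoter here is the 250 bases before the annotated start of the gene in NCBIM37 (mm9), available for 11504 of the tested genes. The motifs searched on both strands were AAAAAAAA, CAGCTG and CAGGTG, which cannot share bases with one another, and matches are in capitals below. Shown are 4 genes that rose over 8-fold and hold an adenine or thymine run (Trpa1, Il2ra, Samd9l, Foxp3), Rag1, which holds both E-boxes, and, for contrast, Igdcc3 and Gprin3, which hold no match. Il2ra and Samd9l were picked after their values were seen. The windows are Trpa1 at chr1:14908944-14909193 (minus strand), Il2ra at chr2:11564169-11564418 (plus strand), Samd9l at chr6:3349572-3349821 (minus strand), Foxp3 at chrX:7156552-7156801 (plus strand), Rag1 at chr2:101489659-101489908 (minus strand), Igdcc3 at chr9:64988711-64988960 (plus strand) and Gprin3 at chr6:59376285-59376534 (minus strand), each printed 5′ to 3′ on the strand of its gene.
Trpa1: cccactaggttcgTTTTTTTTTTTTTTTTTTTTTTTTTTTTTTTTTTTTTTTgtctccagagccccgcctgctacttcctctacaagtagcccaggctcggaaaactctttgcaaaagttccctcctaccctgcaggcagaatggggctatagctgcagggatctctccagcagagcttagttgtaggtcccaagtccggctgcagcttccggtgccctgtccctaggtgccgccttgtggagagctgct
Il2ra: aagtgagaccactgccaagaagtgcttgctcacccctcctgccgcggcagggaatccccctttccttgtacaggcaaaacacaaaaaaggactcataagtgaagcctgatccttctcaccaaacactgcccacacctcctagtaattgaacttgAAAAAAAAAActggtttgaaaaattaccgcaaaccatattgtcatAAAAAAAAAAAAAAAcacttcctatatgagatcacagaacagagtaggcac
Samd9l: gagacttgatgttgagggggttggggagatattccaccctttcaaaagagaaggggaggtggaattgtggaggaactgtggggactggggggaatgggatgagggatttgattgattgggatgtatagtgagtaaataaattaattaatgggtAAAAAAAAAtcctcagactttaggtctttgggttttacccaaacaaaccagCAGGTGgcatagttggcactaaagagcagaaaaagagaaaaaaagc
Foxp3: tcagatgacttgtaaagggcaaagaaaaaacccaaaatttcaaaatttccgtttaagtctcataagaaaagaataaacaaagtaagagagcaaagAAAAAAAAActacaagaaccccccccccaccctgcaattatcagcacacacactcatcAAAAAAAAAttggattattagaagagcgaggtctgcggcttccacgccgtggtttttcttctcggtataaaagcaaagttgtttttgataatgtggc
Rag1: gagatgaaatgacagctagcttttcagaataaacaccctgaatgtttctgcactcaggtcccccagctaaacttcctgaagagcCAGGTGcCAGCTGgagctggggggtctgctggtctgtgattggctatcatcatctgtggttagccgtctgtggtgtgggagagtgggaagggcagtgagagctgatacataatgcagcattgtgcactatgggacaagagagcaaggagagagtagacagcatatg
Igdcc3: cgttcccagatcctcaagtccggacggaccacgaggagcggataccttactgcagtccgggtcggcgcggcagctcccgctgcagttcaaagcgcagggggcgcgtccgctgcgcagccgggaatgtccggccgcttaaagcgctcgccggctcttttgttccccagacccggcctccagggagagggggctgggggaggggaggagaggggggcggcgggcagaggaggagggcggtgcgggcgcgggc
Gprin3: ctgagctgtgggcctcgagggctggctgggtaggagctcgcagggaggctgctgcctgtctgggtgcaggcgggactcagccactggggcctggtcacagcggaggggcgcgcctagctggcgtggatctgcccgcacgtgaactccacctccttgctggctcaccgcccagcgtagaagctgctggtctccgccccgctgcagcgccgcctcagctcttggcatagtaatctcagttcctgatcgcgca

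The Trpa1 window held a run of 39 thymines, the Il2ra window runs of up to 15 adenines, and the Samd9l and Foxp3 windows runs of up to 9. Over all tested genes with a promoter, 823 of 11504 (7.15%) held a run of at least 8 adenines or thymines. Among genes that rose at least 8-fold the share was 28 of 114 (24.6%), among those that rose 2-fold to 8-fold 48 of 498 (9.64%), and among those that rose less 99 of 1291 (7.67%). It was 520 of 7593 (6.85%) among genes that did not pass the threshold, 103 of 1615 (6.38%) among those that fell under 2-fold and 25 of 393 (6.36%) among those that fell at least 2-fold. Among genes under 1 CPM with the empty vector, 23 of 94 that rose at least 8-fold held a run (24.5%) against 121 of 1424 of all such genes (8.50%). Above 1 CPM it was 5 of 20 (25%) against 6.96%. The median GC content was 56.0% in the promoters of the 114 genes and 58.8% in all. Without empty vector replicate 1, 179 genes rose at least 8-fold, and 26 of them held a run (14.5%). Leaving out each of the other 3 libraries gave 20.6% to 25.2%. CAGCTG was in 15.8% of the promoters of the 114 genes and in 10.9% of all, and CAGGTG in 16.7% and 14.8%. Among genes that fell at least 2-fold, CAGCTG was in 12.2% and CAGGTG in 19.1%, the highest share of CAGGTG in these sets. Among all genes that rose at least 2-fold the shares were 14.4% and 14.7%. A match describes these letters and is not a bound site. Of the 14 largest rises 13 had a promoter, and 3 of them held a run (Trpa1, Prg3 and Foxp3). None of the promoters of the 14 largest falls did.

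**Figure D3:**
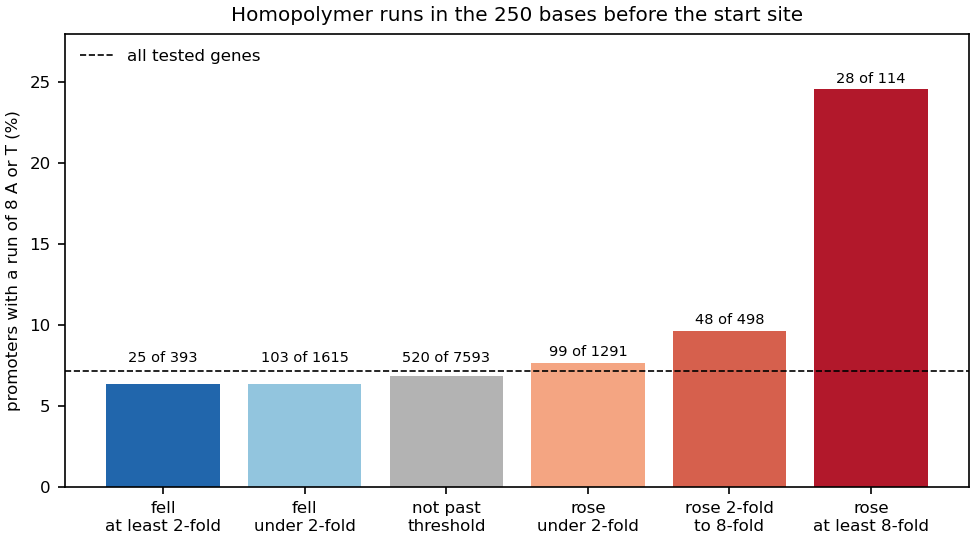
Share of promoters (per cent, vertical axis) with a run of at least 8 adenines or thymines in the 250 bases before the start, by size and direction of the change with TCF3-ZNF384; the numbers above the bars are genes with a run of genes with a promoter, and the dashed line is the share over all tested genes (7.15%). The bar of genes that rose at least 8-fold reaches 24.6% and the others lie between 6.36% and 9.64%.

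Rag1, Dntt and Rag2 rose strongly, but recombination genes did not move as one block. Of 16 tested genes of V(D)J recombination 4 rose and 3 fell, with a median of 0.09. Over all tested genes 16.2% rose and 17% fell. Rag1, a subunit of the recombinase (chr2:101478439-101489658), stood at 0.547 and 0.202 CPM with the empty vector, 0.138 and 0.218 under full-length ZNF384, 6.63 and 9.31 under the TAF15 fusion and 67.6 and 55.1 under the TCF3 fusion. The log2 fold change was 7.32 ± 0.26 over the empty vector (adjusted p = 3.83e-10) and 2.94 ± 0.19 over TAF15-ZNF384 (adjusted p = 6.45e-07). Rag2, its partner and chromosomal neighbour (chr2:101464875-101472685), reached only 1.1 and 1.13 CPM from 0.156 and 0.0403, a log2 fold change of 3.42 ± 0.73 (adjusted p = 0.00266). With TAF15-ZNF384 Rag2 stood at 1.96 and 1.38 CPM, which did not differ from TCF3-ZNF384 past the threshold (adjusted p = 0.611). Dntt, the terminal transferase that adds bases at the joints (chr19:41103765-41134013), rose from 2.7 and 2.9 to 60.7 and 53.5 CPM (log2 4.34 ± 0.33, adjusted p = 4.66e-05), with 9.49 and 18 CPM under full-length ZNF384 and 23.3 and 16.9 under TAF15-ZNF384. Xrcc6, the Ku70 subunit of end joining, rose from 114 and 106 to 188 and 177 CPM. Its partner Xrcc5, Hmgb2 and Atm fell, by 0.37, 0.78 and 0.36 on the log2 scale. The calls for Xrcc5 and Atm were lost without 4 and 3 of the 4 libraries, one at a time (adjusted p from 0.0549 to 0.233 and from 0.0912 to 0.109), and under total-count scaling (0.091 and 0.0502). The falls in this list numbered 1 without empty vector replicate 1, TCF3-ZNF384 replicate 1 or TCF3-ZNF384 replicate 2.

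Of 27 tested genes of the pre-B cell receptor and its signalling 7 rose and 11 fell, median -0.22, and 4 rose without empty vector replicate 1. The surrogate light chain went down. Vpreb2 dropped from 282 and 266 to 73.5 and 77.1 CPM (log2 -1.86 ± 0.14, adjusted p = 2.23e-07) and was below its level with TAF15-ZNF384 (180.5 and 213 CPM, adjusted p = 1.72e-05). Vpreb1 fell by 0.54 and Igll1, which encodes lambda5, by 0.58 on the log2 scale. The SRC family kinase Blk (chr14:63991674-64036024) dropped from 429 and 421 to 105 and 122 CPM (log2 -1.90 ± 0.11), and the kinase Btk (chrX:131076875-131118109) from 50.01 and 43.4 to 17.1 and 15.1 (log2 -1.54 ± 0.12). Rasgrp3, Ptpn6, Malt1, Prkcb, Pik3ap1 and Plcg2 also fell, Rasgrp3 from 0.743 and 1.13 to 0.184 and 0.269 CPM (0.367 and 0.481 under full-length ZNF384, adjusted p = 0.38 for that difference) and Ptpn6, the phosphatase SHP-1, from 18.5 and 15.6 to 9.02 and 10.6. In the same list the kinase Syk rose from 36.1 and 36.3 to 49.9 and 51.1 CPM and the adaptor Blnk from 40.4 and 43.3 to 117 and 124 (log2 1.53 ± 0.27). The TCF3-ZNF384 and empty vector libraries did not overlap for any of these named genes, as was so for 71% of all tested genes.

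Over the wider B lineage list of 37 tested genes, 9 rose and 11 fell, median 0.05. Without TCF3-ZNF384 replicate 2 there were 7 falls, and under total-count scaling 14 rose and 9 fell. Ebf1, an early B cell factor, rose slightly (363 and 339.8 to 419.7 and 452 CPM, log2 0.31 ± 0.10, adjusted p = 0.0236), and the surface enzyme Cd38 went from 3.09 and 3.31 to 10.4 and 7.86 CPM (log2 1.49 ± 0.23). Cd93, a marker of immature B cells, fell from 1345 and 1234 to 855 and 831 CPM (log2 -0.61 ± 0.09) and the inhibitory lectin Cd22 from 6.88 and 9.68 to 5.89 and 4.2. Il7r did not pass the test (70.9 and 74.6 against 82.7 and 90.5 CPM, adjusted p = 0.175). Among 16 tested genes of mature B and plasma cells 3 rose and 5 fell. Prdm1, which encodes the plasma cell repressor Blimp-1 (chr10:44156983-44248307), rose from 0.587 and 0.766 to 4.23 and 5.01 CPM (log2 2.77 ± 0.39), Zbtb20 from 29.6 and 28.6 to 103 and 101 (log2 1.81 ± 0.18) and Mzb1 from 143 and 145 to 234 and 227. Xbp1 and Jchain, which plasma cells express, fell by 0.77 and 1.28, and both calls depended on single libraries: without empty vector replicate 2 adjusted p was 0.0537 and 0.0524, and for Jchain it was 0.114 without TCF3-ZNF384 replicate 2. The number of falls in this list was 2 without empty vector replicate 2 and 3 without TCF3-ZNF384 replicate 2.

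The E protein genes Tcf4 and Tcf12 rose, and genes of their antagonists moved both ways. Of 23 tested genes of the E protein and Id list 10 rose and 6 fell, median 0.18. The rises included Tcf4 (31.6 and 35.2 to 141 and 125 CPM, log2 1.99 ± 0.13, adjusted p = 7.19e-08) and Tcf12 (40.5 and 43.8 to 61.4 and 58.5 CPM, log2 0.51 ± 0.11). Tcf3 is also counted, with the limit on insert reads given above. Tcf12 stood at 49.1 and 56.8 CPM under full-length ZNF384, a difference that did not pass the test (adjusted p = 0.18). Tcf4 was at 55.1 and 55.6 CPM with TAF15-ZNF384, lower than with TCF3-ZNF384 (adjusted p = 2.60e-05). Of the Id genes, whose proteins block E proteins, Id3 fell from 48.7 and 54.1 to 19.5 and 24.5 CPM (log2 -1.21 ± 0.13) and Id2 rose from 37.3 and 53.4 to 70.4 and 71.9 (log2 0.65 ± 0.14). Id3 differed between the fusions (adjusted p = 7.13e-04), and for Id2 the difference did not pass the test (adjusted p = 0.551). The repressor Gfi1 fell from 21.1 and 23.6 to 6.9 and 7.97 CPM (log2 -1.57 ± 0.13), and Hes1, an effector of Notch, rose from 52.4 and 61.7 to 103 and 114. Several members of this list are also counted in the recombination and receptor lists.

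**Figure D4:**
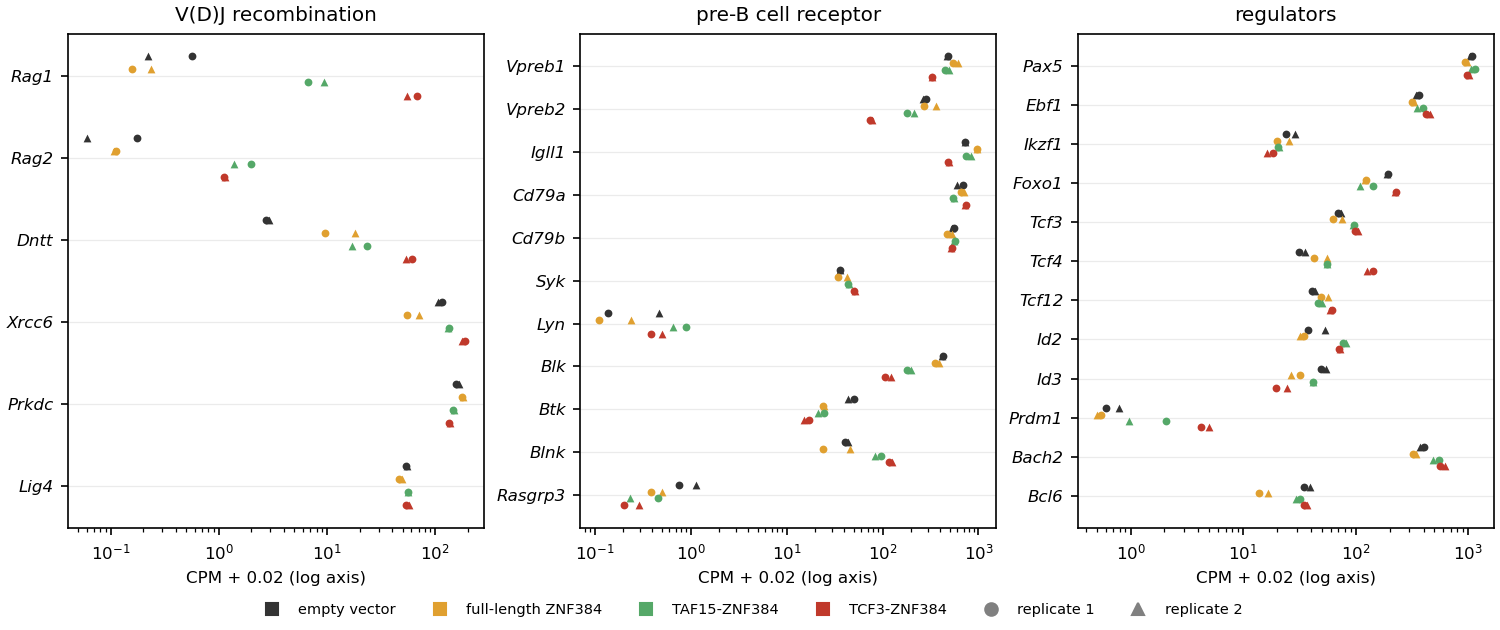
Level in CPM plus 0.02 (horizontal log axis) of genes of V(D)J recombination (left), the pre-B cell receptor (middle) and regulators (right), 1 point per library, coloured by group and shaped by replicate. Rag1 and Dntt lie furthest right with TCF3-ZNF384 (red), Rag2 stays near 1 CPM, Vpreb2, Blk and Btk lie to the left of the empty vector (black), and Pax5 and Cd79b lie on it.

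Genes reported for ZNF384-rearranged leukaemia in patients moved mostly up. Of 21 such genes 13 were tested, and 8 rose and 2 fell, median 0.70. Flt3, a growth factor receptor of progenitors (chr5:148142317-148212065), rose from 2.23 and 2.86 to 18.4 and 19.8 CPM (log2 2.91 ± 0.18, adjusted p = 5.82e-08). It stood at 0.642 and 0.612 CPM under full-length ZNF384 and 4.35 and 4.65 under TAF15-ZNF384, a lower level than with TCF3-ZNF384 (adjusted p = 1.06e-05). Clcf1, a cytokine of the interleukin 6 family, rose from 0.508 and 0.282 to 5.71 and 10.4 CPM (log2 4.35 ± 0.41) and was at 4.68 and 3.91 with TAF15-ZNF384 (adjusted p = 0.101 between the fusions). Il2ra, the CD25 chain of the interleukin 2 receptor (chr2:11564419-11614818), rose from 14.5 and 8.79 to 172 and 164 CPM (log2 3.85 ± 0.25, adjusted p = 9.19e-06), against 10.7 and 15.5 under full-length ZNF384 and 36.5 and 29.8 under TAF15-ZNF384. The myeloid integrin Itgam had 28 counts over both TCF3-ZNF384 libraries against 1 with the empty vector, a ratio of 47.9 (95% interval 7.92 to 1959), and stayed near 1 CPM. Bcl2, the survival gene, fell from 175 and 153 to 53.3 and 48.7 CPM (log2 -1.69 ± 0.11) and Cebpb, a myeloid factor, from 4.07 and 6.05 to 1.29 and 1.62. Cebpb stood at 1.05 and 1.44 CPM under full-length ZNF384, a difference that did not pass the test (adjusted p = 0.545). The other myeloid genes of this list, Cebpa, Cd33, Anpep, Csf3r and Mpo, had too few counts to be tested, as had Kit.

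Cytokine signalling genes moved both ways. In the interleukin 7 and JAK-STAT list 9 of 30 tested genes rose and 7 fell, median -0.12. Il6st, the shared gp130 chain, rose from 15.6 and 12.6 to 57.2 and 55.8 CPM (log2 2.00 ± 0.12, adjusted p = 4.87e-08), Il4ra from 2.42 and 2.58 to 5.43 and 5.12 and the cyclin Ccnd2 from 755 and 634 to 1302 and 1314 CPM (log2 0.91 ± 0.10). Ccnd2 stood at 1164 and 1166 CPM under full-length ZNF384 and 1177 and 1071 under TAF15-ZNF384, and neither difference from TCF3-ZNF384 passed the test (adjusted p = 0.201 and 0.211). Jak2, Jak3, Tyk2 and Stat3 were also among the rises. Of the falls, that of the kinase Pim2 was from 184 and 158 to 55.8 and 63.3 CPM (log2 -1.52 ± 0.17), with 64.5 and 97.1 under full-length ZNF384 and 83.1 and 79.2 under TAF15-ZNF384, neither of which differed from TCF3-ZNF384 past the threshold (adjusted p = 0.0535 and 0.137). Also lower was the gene of the feedback inhibitor Socs2, which fell from 1011 and 915 to 614 and 598 CPM (log2 -0.67 ± 0.09). The median of the list was 0.02 under total-count scaling.

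Both subunits of the alphaV beta3 integrin rose, while other adhesion genes moved both ways. Itgb3, the beta3 subunit that pairs with the alphaV subunit (chr11:104469370-104531790), rose from 3.28 and 4.23 to 132 and 128 CPM (log2 5.11 ± 0.14, adjusted p = 2.26e-11), and its partner Itgav (chr2:83564554-83647073) showed an adjusted p of 9.80e-11. Itgb3 stood at 4.38 and 4.33 CPM under full-length ZNF384 and 25.3 and 22.6 under TAF15-ZNF384, and Itgav at 117 and 114 and 389 and 347. Both subunits were higher with TCF3-ZNF384 than with TAF15-ZNF384, by 2.44 ± 0.12 and 1.19 ± 0.10 (adjusted p = 9.82e-08 and 3.08e-06). Of 23 tested homing, chemokine and adhesion receptors 6 rose and 7 fell. Itgb7 rose from 0.235 and 0.0806 to 5.61 and 4.52 CPM (log2 4.94 ± 0.54), Itgb1 from 60.7 and 57.8 to 140.4 and 142 (log2 1.25 ± 0.10), Itga6 from 39.8 and 39.3 to 63.6 and 62.2 and Pecam1 from 27.4 and 29.2 to 51.1 and 57.3. Itga4, the alpha4 subunit that pairs with beta1 and beta7, fell from 82 and 69.7 to 45.2 and 39.8 CPM (log2 -0.84 ± 0.12), Icam1 from 15.1 and 16 to 4.88 and 7.0 (log2 -1.35 ± 0.18), and the chemokine receptors Ccr7 from 215 and 219 to 137 and 140.3 and Ccr2 from 1.6 and 1.41 to 0.0920 and 0.162 CPM. Ccr7 stood at 73.9 and 82.4 CPM under full-length ZNF384, so that TCF3-ZNF384 was above this group by 0.83 ± 0.10 (adjusted p = 2.07e-05) and below the empty vector. Cxcr4, the receptor for bone marrow retention, did not pass the test (139 and 151 against 154 and 152 CPM, adjusted p = 0.58).

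Matrix and matrix protease genes were higher: of 16 tested 7 rose and 1 fell, with a median of 1.09. Mmp13, a collagenase, rose from 71 and 80.2 to 275 and 274 CPM (log2 1.86 ± 0.22) and did not differ past the threshold from TAF15-ZNF384 (281 and 272 CPM, difference -0.01 ± 0.21, adjusted p = 0.986). The laminin chain Lamb2 rose from 3.17 and 2.7 to 20.3 and 20.1 CPM (log2 2.78 ± 0.29), the protease Mmp11 from 16.1 and 15.2 to 33.6 and 33.4 and Lama5 from 3.05 and 2.38 to 5.89 and 5.65, while Lamb3 fell by 0.78 on the log2 scale. The number of rises was 4 without empty vector replicate 2 and 4 without TCF3-ZNF384 replicate 1. Of 18 TNF superfamily ligands 6 were tested; 4 fell, none rose and the median was -0.99. Beside Tnfsf11 these were Ltb (16 and 15 to 6.63 and 6.62 CPM), Lta (5.87 and 6.37 to 3.68 and 2.53) and Tnfsf9 (10.01 and 13.4 to 4.23 and 7.32), with Lta losing its call without TCF3-ZNF384 replicate 2 (adjusted p = 0.0783). Against full-length ZNF384, 3 of the 6 were lower: Ltb (7.86 and 9.57 CPM there, difference -0.38 ± 0.16, adjusted p = 0.0584) and Tnfsf9 (5.04 and 4.72 CPM, difference 0.29 ± 0.23, adjusted p = 0.328) did not pass the test.

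Genes read by NK cells and genes of antigen presentation rose in part. Of 19 tested MHC class I and NKG2D ligand genes 10 rose and 2 fell, median 0.36. After H60b, the ligand genes Raet1d (0.156 and 0.242 to 1.56 and 1.51 CPM) and Raet1e (0.156 and 0.0806 to 0.736 and 0.754) rose, as did the class I genes H2-Q4 (293 and 325 to 422 and 481 CPM) and H2-D1. B2m (log2 0.31 ± 0.13) and H2-K1 (log2 0.46 ± 0.20) did not pass the test (adjusted p = 0.0815 and 0.107). The rises numbered 4 without empty vector replicate 1, 4 without TCF3-ZNF384 replicate 2 and 6 without TCF3-ZNF384 replicate 1, with no falls in any of these fits, and reads of these near-identical genes may be shared between copies. Of 32 tested interferon response genes 11 rose and 1 fell, median 0.22. The risers were guanylate-binding proteins and related GTPases with Zbp1 and Dhx58: Gbp2 went from 8.99 and 9.19 to 31.2 and 25.6 CPM (log2 1.63 ± 0.18), Gbp3 from 1.02 and 1.29 to 4.69 and 5.01 and the nucleic acid sensor Zbp1 from 0.352 and 0.242 to 3.13 and 4.47 (log2 3.66 ± 0.63). Irf7 (log2 -0.14 ± 0.22) did not pass the test (adjusted p = 0.649), and the single fall, Ifit2, was lost without any 1 of the 4 libraries (adjusted p from 0.108 to 0.143). The rises fell to 6 without empty vector replicate 1, 7 without empty vector replicate 2, 7 without TCF3-ZNF384 replicate 1 and 6 without TCF3-ZNF384 replicate 2. Samd9l, an interferon-inducible antiviral gene outside these lists that was chosen after its values were seen (chr6:3322257-3349571), rose from 28.2 and 31.7 to 423 and 438 CPM (log2 3.85 ± 0.12, adjusted p = 9.80e-11), against 114 and 106 with TAF15-ZNF384.

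In the NF-kB list 6 of 20 tested genes rose and 4 fell, and 2 fell without TCF3-ZNF384 replicate 1 or 2. The inhibitor of apoptosis Birc3 rose from 41 and 42.9 to 99 and 93.4 CPM (log2 1.20 ± 0.10), and the genes of the alternative arm Relb (7.16 and 8.87 to 13.6 and 15.6 CPM) and Map3k14, which encodes NIK (53.8 and 52.2 to 73.6 and 75), rose as well. The call for Relb was lost without TCF3-ZNF384 replicate 2 (adjusted p = 0.0561). Il10, an anti-inflammatory cytokine (chr1:132916422-132921551), had no read in either control library and 2.02 and 2.42 CPM with TCF3-ZNF384, at least 38.2-fold higher. Against full-length ZNF384, 18 of the 20 tested genes of this list were higher with TCF3-ZNF384 and 2 lower. Over all tested genes 22.2% were higher and 23.4% lower in that contrast. The median of the NF-kB list was 1.30 there and 0.25 over the empty vector.

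Stem and progenitor genes were mostly not testable: 13 of 29 had enough counts, of which 5 rose and 2 fell, with 1 fall without any 1 library. Beside Flt3 the rises were Sox4 (309 and 325 to 579 and 618 CPM), Lyl1 (32.9 and 26.9 to 51.4 and 48.6), Gfi1b (80.9 and 75.3 to 126 and 124) and Myb (106 and 127 to 181 and 187), each a haematopoietic transcription factor gene. Lyl1 stood at 46.4 and 49 CPM under full-length ZNF384, which did not differ past the threshold (adjusted p = 0.646). Hoxa9, Procr and Tek had 0 counts in the 4 libraries. Of 8 testable myeloid markers 1 rose, Itgam, and 2 fell, Cebpb and Mrc1, the latter lost without empty vector replicate 2 (adjusted p = 0.057) and TCF3-ZNF384 replicate 1 (adjusted p = 0.093). Of 13 testable T and NK cell markers 4 rose and 2 fell, with 2 rises without empty vector replicate 2 and 1 without TCF3-ZNF384 replicate 2. Tbx21, the T-bet factor, rose from 0.235 and 0.323 to 3.96 and 4.79 CPM (log2 3.95 ± 0.52). Klrb1c had 26 counts against 2, a ratio of 22.2 (5.57 to 193), and its call was lost without empty vector replicate 2 (adjusted p = 0.0582) and TCF3-ZNF384 replicate 2 (adjusted p = 0.108). Epor, the erythropoietin receptor and a neighbour of Elavl3, had 37 counts against 1, a ratio of 63.3 (10.7 to 2567), and stayed under 2 CPM.

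Growth genes went down together while cyclin genes did not. Of 34 tested genes of the MYC network and its targets 25 fell and 1 rose, median -0.59. Mycn fell from 93.7 and 104 to 35.2 and 43.9 CPM (log2 -1.32 ± 0.12) and Myc from 87.7 and 78.7 to 54.9 and 49.97 (log2 -0.67 ± 0.10), and the targets Srm, of polyamine synthesis, from 78.4 and 77.9 to 31.4 and 34.7 (log2 -1.24 ± 0.15) and Rrp9, of ribosome assembly, from 32.4 and 33.8 to 16.8 and 19.1. Without TCF3-ZNF384 replicate 2 the falls numbered 16. Of 36 S phase genes 18 fell and 1 rose, median -0.32, with Mcm5, a subunit of the replicative helicase, going from 140.03 and 142 to 76.6 and 88.1 CPM and Pold1 from 204 and 203 to 146 and 152. Of 30 G2 and M phase genes 21 fell and 1 rose, median -0.44, with the kinase Nek2 going from 333 and 289.8 to 190.4 and 163 CPM and Anln from 210.4 and 213 to 141 and 136. These counts rested on all 4 libraries: the S phase falls were 9, 7, 11 and 8 without empty vector replicates 1 and 2 and TCF3-ZNF384 replicates 1 and 2 in turn, and the G2 and M phase falls were 7 without empty vector replicate 1 and 6 without TCF3-ZNF384 replicate 2. Of 21 cyclins, kinases and inhibitors 7 rose and 2 fell, and the rises included the inhibitors Cdkn2b (4.58 and 5.69 to 8.93 and 12.4 CPM) and Cdkn2c (36.1 and 29.4 to 58.4 and 52), the retinoblastoma gene Rb1 (141 and 128 to 218 and 214) and E2f2 (192 and 185 to 321 and 318), while Ccnd3 fell from 141 and 125 to 90.9 and 94.5. The falls in that list numbered 1 without any 1 library.

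The broadest falls were those of ribosomal protein and histone genes. Of 75 tested ribosomal protein genes 67 fell and 1 rose, median -1.02. Rplp0 fell from 470.1 and 413 to 233 and 237 CPM and Rpsa from 677 and 539 to 279.99 and 265, and with TAF15-ZNF384 they stood at 278 and 286 and 304 and 352 CPM. Of the 75, 70 were lower and 1 higher than with full-length ZNF384, with a median of -0.83, where 23.4% of all genes were lower. Only 1 of the 75 was lower with TCF3-ZNF384 than with TAF15-ZNF384, where 4.17% of all genes were. The falls numbered 44 without TCF3-ZNF384 replicate 1 and 44 without TCF3-ZNF384 replicate 2. Of 52 tested replication-dependent histone genes 48 fell, none rose and the median was -0.80. Hist1h2bg fell from 3123 and 3111 to 1321 and 1468 CPM (log2 -1.16 ± 0.10) and Hist1h2ae from 1039.7 and 1196 to 435 and 474 (log2 -1.30 ± 0.11). Here 47 of the 52 were also lower than with TAF15-ZNF384 and 44 lower than with full-length ZNF384. The summed level of the list was 86785 to 88435 CPM with the empty vector, 66540 to 74649 with full-length ZNF384, 69345 to 77714 with TAF15-ZNF384 and 45901 to 50954 with TCF3-ZNF384. Both families have near-identical copies or pseudogenes, so single members are uncertain.

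The median change varied with transcript length. Over the 2302 shortest genes by annotated length (66 to 1745 bases) the median change was -0.13, and over the 2298 longest (5999 to 52997 bases) it was 0.15. Without ribosomal protein and histone genes these medians were -0.11 and 0.15. Of the shortest genes 478 fell and 163 rose. Total-count scaling moved the median of all genes from 0.01 to 0.15, a shift of about the size of the short genes' median, so its sign depends on the scaling. With a trend on length removed, the ribosomal protein median was -0.93 with 59 falls and the histone median -0.59 with 45 falls. With total-count scaling they were -0.87 and -0.66.

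**Figure D5:**
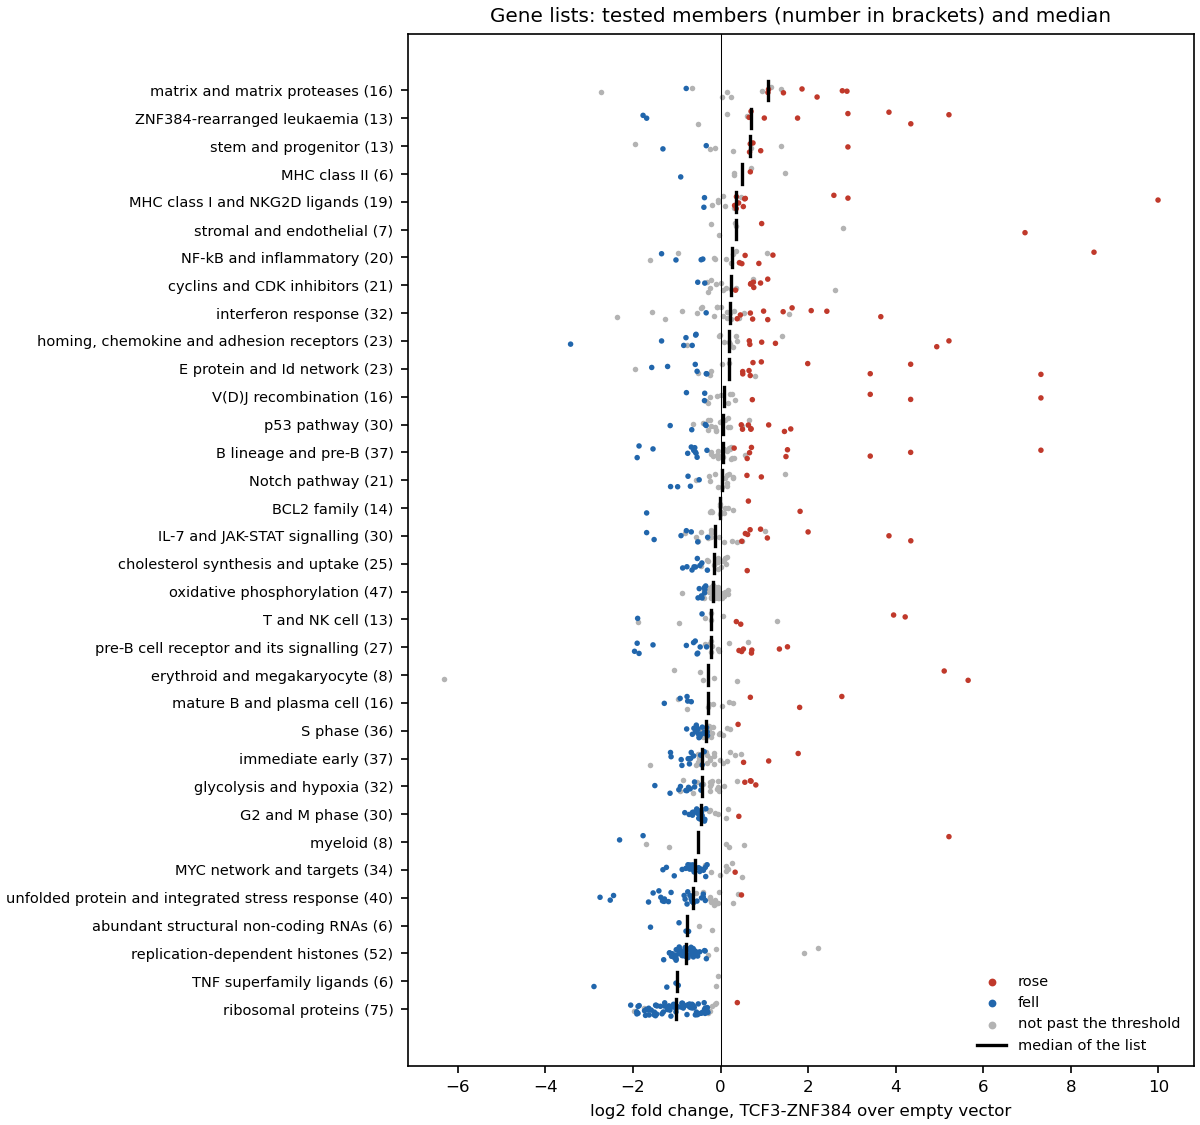
Log2 fold change over the empty vector (horizontal axis) of the tested members of each gene list, 1 point per gene with red for rises, blue for falls and grey for genes not past the threshold, and a black bar at the list's median; the number of tested members is in brackets. Ribosomal proteins, TNF superfamily ligands and histones have the lowest medians (-1.02, -0.99 and -0.80), and matrix genes and the ZNF384-rearranged leukaemia genes the highest (1.09 and 0.70).

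Most tested genes of the stress response fell, and metabolic genes fell in part. Of 40 tested genes of the unfolded protein and integrated stress response 26 fell and 1 rose, median -0.64. Among the falls were Trib3, a pseudokinase (154 and 162 to 27.1 and 30.7 CPM, log2 -2.44 ± 0.14), the glutathione-degrading enzyme Chac1 (14.4 and 14.9 to 2.58 and 2.53, log2 -2.52 ± 0.24), asparagine synthetase Asns (233 and 219.8 to 75.4 and 69.5, log2 -1.65 ± 0.11), the serine synthesis enzyme Phgdh (453 and 437 to 185 and 179), the folate enzyme Mthfd2 (294 and 288 to 117 and 123) and the amino acid transporter Slc7a5 (806 and 777 to 314 and 337). Trib3 stood at 35.8 and 48.5 CPM under full-length ZNF384 and 44.6 and 44.7 under TAF15-ZNF384, so the empty vector libraries stood above all 6 others. Atf4 itself did not pass the test (log2 -0.24 ± 0.17, adjusted p = 0.306), nor did the chaperone gene Hspa5 (log2 -0.24 ± 0.21, adjusted p = 0.404). In the glycolysis and hypoxia list 12 of 32 fell and 4 rose, median -0.42. Vegfa fell from 139 and 162 to 48.9 and 57 CPM (log2 -1.50 ± 0.13), Pfkp, a phosphofructokinase, from 65.2 and 62.5 to 28.1 and 29.2 and the oxygen sensor Egln1 from 162 and 139 to 82.5 and 77.5, whereas Pdk1 rose from 48.5 and 44.7 to 78.2 and 73.1 and Ndrg1 from 24.6 and 32.4 to 45 and 46.4. Pdk1 stood at 115 and 136 CPM under full-length ZNF384, above TCF3-ZNF384 (difference -0.73 ± 0.11, adjusted p = 8.77e-05). Of 25 cholesterol genes 9 fell and 1 rose, and of 47 oxidative phosphorylation genes 9 (19.1%, against 17% over all) fell and none rose. The latter had 4 falls and a median of -0.04 under total-count scaling, with 2 falls without empty vector replicate 1, 2 without TCF3-ZNF384 replicate 1 and 4 without TCF3-ZNF384 replicate 2.

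Counts of immediate early genes depended on single libraries. Of 37 tested 12 fell and 3 rose, median -0.42, with 2 falls without TCF3-ZNF384 replicate 1 and 4 without empty vector replicate 2. Dusp5, a phosphatase of ERK, fell from 145 and 154 to 72.9 and 88.8 CPM (log2 -0.88 ± 0.12). Klf2 stood at 31.8 and 65 CPM with the empty vector and 151 and 179 with TCF3-ZNF384, and its rise was lost without either TCF3-ZNF384 library (adjusted p = 0.0663 and 0.0954) and in the fit of the 2 groups alone (0.108). The rises numbered 1 without empty vector replicate 1, 1 without TCF3-ZNF384 replicate 1 and 0 without TCF3-ZNF384 replicate 2. Against full-length ZNF384 the median of the same list was 1.49: Klf2 stood at 0.871 and 2.05 CPM there. In the same contrast 19 of 30 tested genes of the p53 list were higher with TCF3-ZNF384 and 1 lower, median 0.55. Over all tested genes 22.2% were higher and 23.4% lower in that contrast. Over the empty vector the p53 list moved less, with a median of 0.06. There 16.2% of all tested genes rose and 17% fell. In the p53 list, measured in cells without Arf, 8 of 30 rose and 4 fell, with 1, 5, 3 and 2 rises without empty vector replicates 1 and 2 and TCF3-ZNF384 replicates 1 and 2 in turn and 2 falls or fewer in each, and Cdkn1a did not pass the test (log2 -0.21 ± 0.12, adjusted p = 0.204).

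Some genes set TCF3-ZNF384 apart from all 3 other groups by the test of each difference, which share its libraries. The largest such rises were Tmprss11b, Gpr1, H60b, Ly6g6f, Tfr2, Rnase6, Chp2 and Cubn. Tmprss11b, a serine protease gene, had 1.29 and 1.72 CPM with TCF3-ZNF384 and 0 counts in the 6 other libraries, at least 26.2-fold higher than with the empty vector. Gpr1 (1.47 and 1.29 CPM) and Ly6g6f (1.29 and 0.754 CPM) also had 0 counts in the other 6, at least 22.8-fold and 16.0-fold higher (the call for Ly6g6f was lost in DESeq2's Wald test, adjusted p = 0.285), and the RNase gene Rnase6 (1.66 and 1.56 CPM) had 0 counts in 5 of them. The largest such falls were Fggy, Ptgs1, Rasa4, Crhbp, Vipr1, Ramp1, Spp1 and Lif. Ramp1, a subunit of the receptor for calcitonin gene-related peptide, stood at 45.5 and 38.3 CPM with the empty vector, 38.2 and 40.2 under full-length ZNF384, 36.1 and 45.4 under the TAF15 fusion and 14.8 and 13.1 under the TCF3 fusion. The falls were -1.59 ± 0.14, -1.49 ± 0.14 and -1.55 ± 0.14 on the log2 scale. Spp1, which encodes osteopontin, an integrin ligand, stood at 5.32 and 5.0, 11.1 and 11.2, 2.61 and 5.29 and 1.93 and 1.18 CPM in the same order. Rasa4 lost its call without TCF3-ZNF384 replicate 2 (adjusted p = 0.161), and Ptgs1 without empty vector replicate 2 and without either TCF3-ZNF384 library (adjusted p = 0.268, 0.113 and 0.243).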

How the data were processed

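RNA-seq of total RNA was deposited by the authors as raw counts per gene and library, made with HTSeq 0.6.1p1 on mm9 per the submitters' processing notes. Which aligner made the alignments, and whether counting used the strand, are not given in the sources used here. All 8 libraries were fitted together in edgeR 4.0.16 (R 4.3.3), with trimmed-mean scaling, a filter on low counts and the quasi-likelihood test. DESeq2 1.42.0 and limma 3.58.1 (voom) were alternatives. Adjusted p-values are Benjamini-Hochberg over all 12970 tested genes. The members and lists were chosen with earlier results of these data known. Named were the introduced genes, the 14 largest rises and falls whose higher group averaged 5 CPM or more and whose libraries did not overlap, the 8 largest gains and losses in CPM with at least 1.5-fold change, up to 4 genes per direction and list with the smallest adjusted p, and up to 8 per direction past the threshold in all 3 contrasts. Other list members in the text, such as Id2, Ebf1, Myb, Ptpn6, Rasgrp3, Cdkn2b, Phgdh, Raet1e and the genes named as not past the threshold, were named after their values were seen and were not refitted singly. Fold floors use 3 counts over the empty vector group, and intervals of ratios are exact binomial at 95%. Gene positions, lengths and promoters come from the NCBIM37 annotation and were matched by symbol for 11504 tested genes (88.7%). The fit was tested on simulated counts.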

Additional observations from a re-analysis of the deposited data

How the results depend on the processing

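None of the up to 212 genes named by the rule reversed direction under the alternatives in which they could be tested, but some lost their call. Total-count scaling without the 5 non-coding genes lost 13 of 208 and thinning to the shallowest library 10 of 207. Leaving out any single library, which leaves its group without a replicate, lost more calls than either. The remaining alternatives lost 0 to 9. List members outside the rule were not refitted singly. The genes changed against the empty vector numbered 2501 to 2855 with one library left out, with 1268 to 1446 rises and 1233 to 1480 falls. Against full-length ZNF384 they numbered 3866 to 6558 and against TAF15-ZNF384 371 to 646. Fitting only the 2 groups compared gave 5370, 5119 and 2548. With the replicate number as a block the counts were 4655, 6111 and 1523. The numbers share no stated origin, and same-numbered libraries correlated from -0.0117 to 0.221, so they were not taken as pairs. Total-count scaling without the 5 non-coding genes gave 3013 rises and 1446 falls. Under that scaling falls numbered 11 in the S phase list, 5 in the immediate early list, 2 in the p53 list and 2 in the NF-kB list. In the fit of 2 groups alone 14 B lineage genes rose and 19 oxidative phosphorylation genes fell. DESeq2's Wald test called 3706 genes, limma-voom 4237, and libraries thinned to the shallowest 3934. The length trend, other run lengths, RefSeq promoter windows and the 8-fold set under each fit were added after seeing the data. The share of promoters with a run of 10 adenines or thymines was 20.2% in genes that rose at least 8-fold and 4.62% in all. The 2 cultures per group and 9583008 counts in the shallowest of the 4 libraries limit what low genes can show.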

Other observations

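Genes that changed at least 2-fold often lay beside one another. Of 612 placed genes that rose at least 2-fold, 149 (24.3%) had an adjacent tested gene that rose as much, against 1168 of all 11504 placed genes (10.2%). Of 393 that fell at least 2-fold it was 61 (15.5%) against 766 (6.66%). The adjacent pairs numbered 86 for rises, 10 of them overlapping gene models, and 32 for falls, 5 of them overlapping. Runs of neighbouring rises, picked after their values were seen, were Epor, Prkcsh and Elavl3 (chr9:21763343-21856467), Igdcc4, Igdcc3 and Parp16 (chr9:64949293-65087026), Ankrd33b, Ropn1l and March6 (chr15:31221234-31460792) and the guanylate-binding genes Gbp8, Gbp9, Gbp4 and Gbp6 (chr5:105443172-105722718), in mm9 coordinates. The last run holds near-identical copies, for which the counts of single genes are uncertain.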
